A study of Nicotiana tabacum and Solanum tuberosum subsp. andigenum and Nicotiana sylvestris with 28 samples.

Results

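Phytochrome B (phyB) is a red and far-red light receptor that, in potato, takes part in reading day length and holds back tuberization in long days (LD). A transcript can be more abundant in LD than in short days (SD) and yet be little changed when phyB is reduced. Such LD transcripts are described here: clones of a potato cDNA array, selected on the measured LD/SD ratio (log2 mean of at least 1 over 6 potato arrays) and on the mean log2 ratio of wild type (WT) over antisense PHYB plants (α-PHYB) (between -0.5 and 0.5 over 3 arrays). The rule took 229 of 32448 spots, among the 13827 spots with a value on all 9 arrays, after 9 spots of genes with a proper symbol were left out. Each clone is printed as 2 spots, and the 229 spots belonged to 138 of 15360 clones, of which 10684 gave a value on at least 1 array. Both spots met the rule for 91 clones. For 30 of the other 47 the second spot was measured and lay outside, and for 17 it lacked a value on at least 1 of the 9 arrays.

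The potato plants (Solanum tuberosum subsp. andigena, which tuberizes in SD) were moved to SD for 1 or 15 days, and their leaf RNA was hybridized against that of plants kept in LD for 56 days. The α-PHYB plants, of a single antisense line, were grown in LD and set against WT in LD. Nicotiana tabacum MM, the Hicks cultivar with the Maryland Mammoth allele, which flowers in SD, and the day-neutral N. tabacum Hicks, isogenic to it, were moved to SD in the same way, whereas N. sylvestris, which flowers in LD, was moved for 1 or 15 days from SD to LD and set against plants kept in SD. There were 3 biological replicates for each biotype and day and for α-PHYB, and 1 more potato array was a dye swap of replicate 1 at 15 days. The photon flux per square metre and second was 160 μmol in SD, lit for 8 h a day, and 80 μmol in LD, lit for 16 h. The harvest is given as 14 h after the lights came on, but the labels also place it at dusk in LD, whereas the lights stayed on for 16 h, so its time relative to dusk is unsure. SD plants were in darkness by either account, and day length, irradiance and light at harvest cannot be told apart in the LD/SD ratios.

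Ratios of potato and N. tabacum are LD/SD and those of α-PHYB are WT/α-PHYB. A positive value therefore means less transcript in the plants moved to SD, or in α-PHYB, than in their controls. For N. sylvestris a positive LD/SD ratio means more transcript in the plants moved to LD. Which channel is on top in the deposited ratios is not given and was set from the signs of F3H, GBSS, STUGE51 and PR1B, which are therefore no independent result. By the paper PR1B differed between WT and α-PHYB and not with photoperiod, so it could bear on the WT/α-PHYB ratios only. The means kept for this check were LD/SD ratios of potato, 0.93 and 0.74 for PR1B. No WT/α-PHYB value of PR1B is given here, so the direction of those ratios is less sure. A ratio gives no level, so neither the abundance of a transcript nor a tissue marker could be checked.

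The potato and α-PHYB ratios chose the clones and are described without a test. The potato mean of the 138 clones had a median of 1.30 and reached 2.68. It was 1.5 or more in 45 clones and 2 or more in 17. After averaging both spots, 11 clones had a mean below 1, the lowest at 0.86, and 5 had an α-PHYB mean outside the limits. The spots just inside the potato limit had means of 1.01, 1.01 and 1.01, and those just outside 0.997, 0.997 and 0.993. At the upper α-PHYB limit the nearest spots inside had 0.498, 0.497 and 0.497, against 0.502, 0.503 and 0.508 outside. At the lower limit they had -0.487, -0.445 and -0.441 inside, against -0.512, -0.531 and -0.606 outside. Of the 501 spots with a potato mean of 1 or more, 256 lay above the upper limit and 7 below the lower one, so the group borders on a large body of LD spots that were also lower in α-PHYB.

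**Figure D1:**
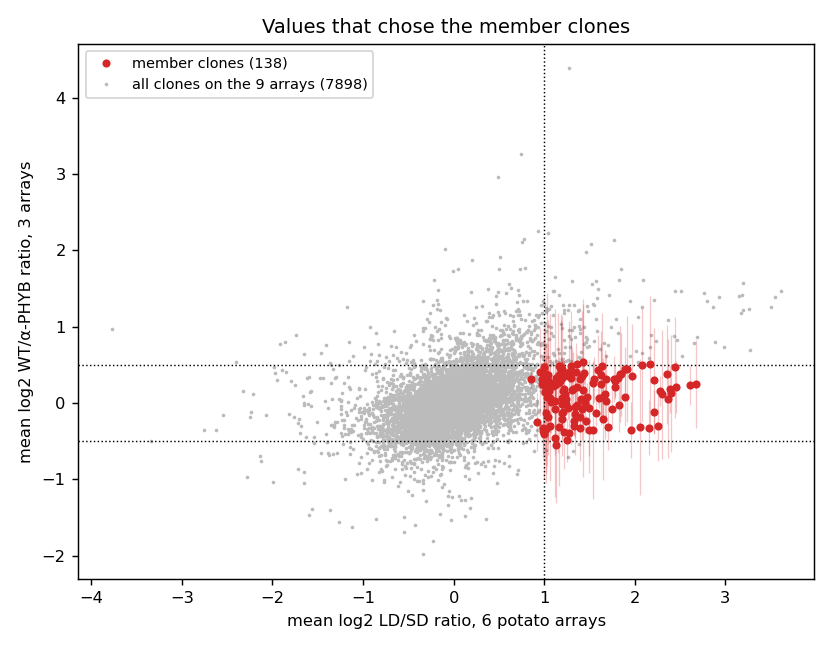
Mean log2 LD/SD ratio over 6 potato arrays (horizontal) against mean log2 WT/α-PHYB ratio over 3 arrays (vertical), with the 138 clones in red (bars, standard deviation over the 3 arrays) and all 7898 clones measured on the 9 arrays in grey. Dotted lines mark the limits at 1, 0.5 and -0.5. The red points fill the right-hand band between the limits, and the bars of many of them cross a limit.

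The LD/SD ratio was high on nearly every potato array. All 6 values were above 0 in 136 of the 138 clones, and 53 clones had all 6 at 1 or more. The dye-swap array had a value for 136 clones, every one above 0, with a median of 1.27 against 1.35 on its partner array. That array was not used by the rule, but shares both RNA extracts with its partner.

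The α-PHYB ratios of the clones were less uniform than their means. The 138 means had a median of 0.18, and 94 were above 0. Their standard deviation over the 3 arrays had a median of 0.37, against 0.21 for all 7898 clones on the 9 arrays. It was 0.47 in the 135 clones with a potato mean of 1 or more and a WT/α-PHYB mean over 0.5. A wide spread was therefore not particular to the 138 clones. Of the 133 clones whose mean lay within the limits, 52 (39.1%) had all 3 values within 0.5 of 0, against 68.7% of all clones with such a mean. A value over 1 in size occurred in 22 (16.5%) of the 133, against 2.06% of all such clones. The label of independence from phyB thus describes a mean of 3 arrays.

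**Figure D2:**
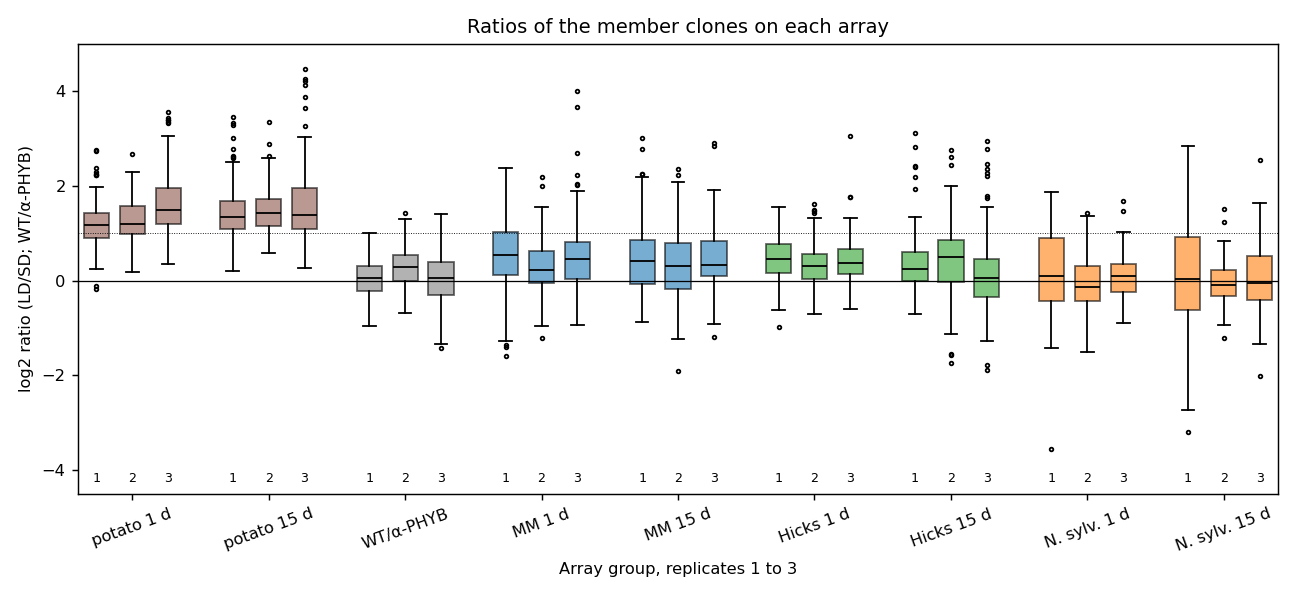
Log2 ratios of the 138 clones on each array (line at the median, box at the quartiles, whiskers up to 1.5 times the box, points beyond), by array group and replicate, with LD/SD ratios for potato, MM, Hicks and N. sylvestris and WT/α-PHYB ratios in grey. Medians lay between 1.17 and 1.48 on the 6 potato arrays, between 0.056 and 0.283 for α-PHYB, between 0.214 and 0.534 in MM, between 0.057 and 0.493 in Hicks and between -0.127 and 0.097 in N. sylvestris.

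The clones were chosen on both days together, so the days are compared here only as a description. The 1-day means had a median of 1.26 and the 15-day means of 1.39. The 15-day mean was the higher one in 94 of the 138 clones, against 4306 of all 7898. The difference of 15 days minus 1 day had a median of 0.12, against 0.02 for all clones. The values of the days did not overlap in 19 clones, of which 14 were higher at 15 days and 5 at 1 day. A day difference over 1 in size was seen in 4 clones. A difference of 1 or more toward 15 days occurred in 3 of the 138 clones and in 21 of all 7898. It occurred in 13 of the 135 clones with a potato mean of 1 or more and a WT/α-PHYB mean over 0.5. The count of days without overlap, and that of differences in either direction, were not made over all clones. They cannot be read as particular to the 138.

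Clones 143184 and 147370, named by the number of the first of their 2 spots and without a gene name, had the widest steps between the days. Clone 147370 had LD/SD ratios of 1.07, 0.99 and 0.98 after 1 day and of 2.63, 2.54 and 2.31 after 15 days. Clone 143184 had 1.14, 1.00 and 1.22 after 1 day and 2.61, 2.63 and 2.36 after 15 days. The days of both clones are far apart, with little spread between replicates. Their WT/α-PHYB ratios were -0.15, -0.29 and 0.22 for clone 147370 and -0.15, -0.29 and 0.37 for clone 143184, all close to 0. The clones differed by at most 0.24 on any of the 9 potato arrays and by at most 0.59 on all 27 arrays where both had a value. They were singled out after their values were seen, and the files do not say whether they carry the same transcript.

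The clones with the highest potato means were 142430 (2.68), 134408 (2.61), 159148 (2.45), 139346 (2.44) and 149059 (2.40). The annotation places 149059 under LOC102584296 and names none of the others. Clone 142430 had ratios of 2.77, 2.69 and 3.02 after 1 day and of 3.01, 2.35 and 2.22 after 15 days, with WT/α-PHYB ratios of 0.15, 0.87 and -0.27. Its LD/SD values stayed above 2 on every array, while its α-PHYB values lay on both sides of 0. Clone 134408 had 2.38, 2.14 and 2.72 after 1 day and 3.45, 2.16 and 2.81 after 15 days, with WT/α-PHYB ratios of 0.21, -0.01 and 0.50. Clones 159148 and 161574 were close to it on the potato arrays, with means of 2.45 and 2.39, and clone 161574 differed from 134408 by at most 0.33 there.

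Replicate 3 stood above the other replicates in a part of the clones. In 32 of the 138 clones (23.2%) both replicate 3 potato arrays lay above the other 4, against 7 (5.07%) for replicate 1 and 3 (2.17%) for replicate 2. Among all 7898 clones the shares were 13.9% for replicate 3, 12.5% for replicate 1 and 6.25% for replicate 2. The gap exceeded 1 in 8 of the 138 clones, and in 19 of all 7898. Clone 149059 had 1.30, 2.25 and 3.34 after 1 day and 1.58, 1.46 and 4.47 after 15 days, and its WT/α-PHYB ratios were -0.46, -0.17 and 1.00. Replicate 3 was thus the high one in all 3 comparisons. The labels give these arrays different extract names but the same replicate number for the LD control, and whether the plants were shared is not stated. The replicate 3 arrays of 1 and 15 days had the highest correlation of any pair of potato arrays over all clones (0.849). The other clones of LOC102584296, 148253 and 161453, had replicate 3 values of 3.36 and 4.22, and of 2.47 and 3.03, against 1.05 to 2.23 on their other arrays. Clones 134271, 134993 and 156627, which have no gene name, followed 149059 within 0.59, 0.42 and 0.34 on the 9 potato arrays. Over these 6 clones the WT/α-PHYB ratio was -0.60 to 0.25 in replicates 1 and 2 and 0.92 to 1.07 in replicate 3. A mean near 0 therefore stood for 2 arrays near or below 0 and 1 array near 1. Of the 32 clones, 25 (78.1%) had their highest α-PHYB value in replicate 3, against 85.5% of the 1095 clones of the whole array with the same potato pattern, and it exceeded 0.5 in 17 (53.1%), against 19.9% of the 1095. Without replicate 3 the potato mean was still 1 or more in 117 of the 138 clones, against 121 without replicate 1 and 130 without replicate 2.

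**Figure D3:**
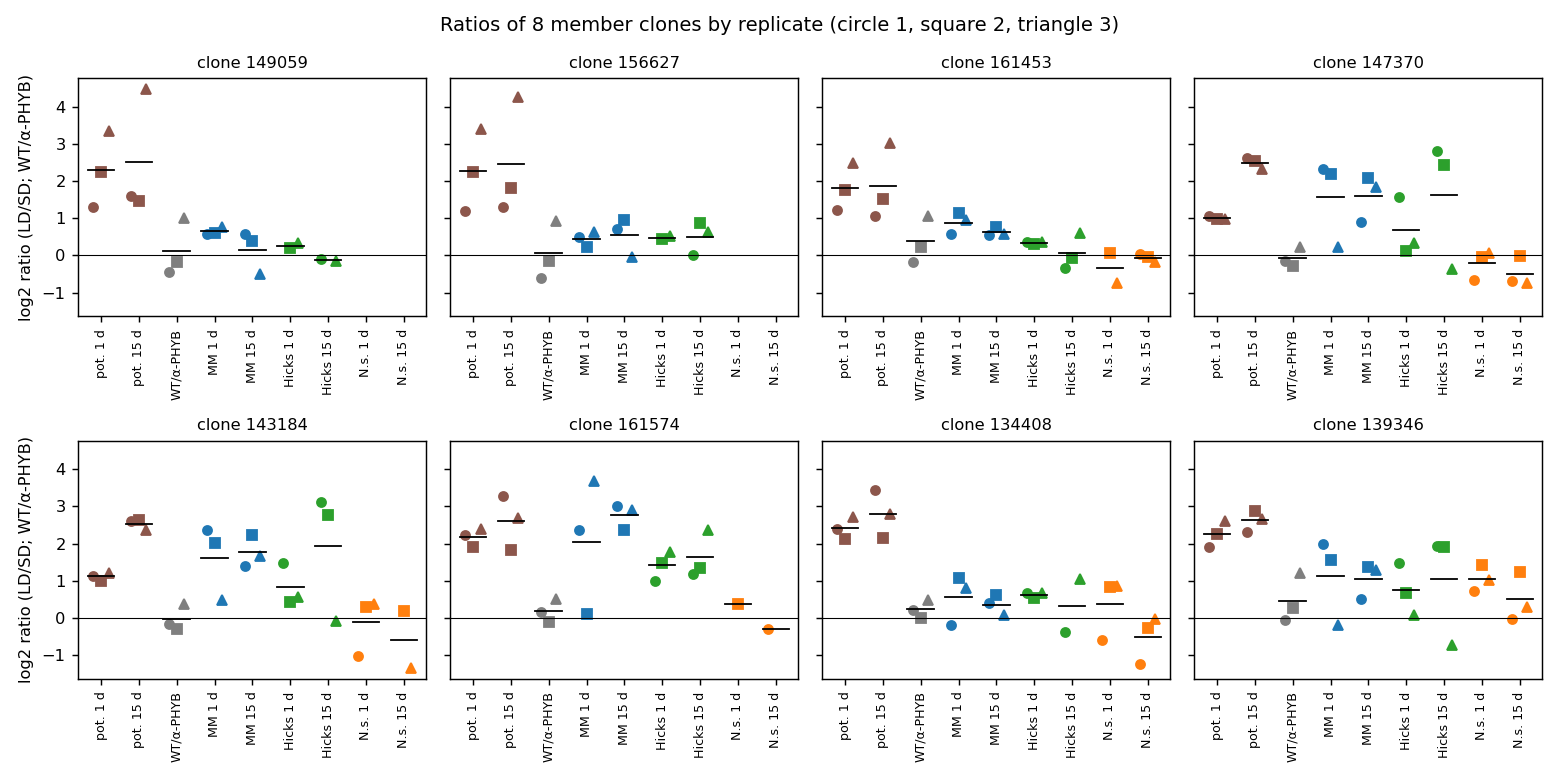
Log2 ratios of 8 clones by array group (circles, squares and triangles for replicates 1, 2 and 3, lines at the mean of the values present), LD/SD except for WT/α-PHYB in grey. Clones 149059, 161453 and 156627 have triangles of 2.47 to 4.47 in potato and 0.92 to 1.07 for α-PHYB, whereas 147370 and 143184 step between 1 and 15 days.

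A gene symbol was given for 18 of the 138 clones, all as locus numbers, which the tables used here pair with no description. The 2 clones of LOC102577923, 141104 and 145419, had potato means of 1.17 and 1.29 and α-PHYB means of 0.29 and 0.34. The 2 clones of LOC102588954, 139395 and 153136, had potato means of 1.39 and 1.23 and α-PHYB means of 0.32 and 0.12, and all their potato values lay between 0.80 and 1.88. Those of LOC102577720, 142508 and 150892, had potato means of 1.19 and 1.03 and α-PHYB means of 0.06 and -0.34. LOC102577839 showed the limits of the rule, since only 2 of its 4 clones were taken. Its clones 132891 and 145970 had α-PHYB means of 0.17 and 0.53, against 0.60 and 1.10 in clones 144754 and 148020, whereas the potato means of all 4 were 1.31 to 1.43. LOC102577532 was represented by clone 148075, and its 2 other clones had potato means of 0.73 and 0.90. The remaining single-locus clones were 134239 of LOC102577779 (potato mean 1.15), 137342 of LOC102577927 (1.12), 154181 of LOC102604560 (0.93) and 155790 of LOC102582822 (1.04). The other clone of LOC102577779 had an α-PHYB mean of 0.57, and the 3 other clones of LOC102582822 had potato means of 0.61 to 0.72, so neither locus was taken whole. Clones 145346 and 153419 are listed under several loci each and are not named by one; their potato means were 1.55 and 1.05.

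The Nicotiana arrays had no part in the choice of the clones and ask whether the same LD excess is seen in related species. A clone was tested where all 6 arrays of a biotype gave a value, and was called at p of 0.05 or less, an adjusted p of 0.1 or less (limma, Benjamini-Hochberg over all clones tested) and a mean of at least 1 in size. In MM 73 of the 138 clones could be tested, in Hicks 70 and in N. sylvestris 50, and 56 could be tested in none. That is 52.9%, 50.7% and 36.2% of the clones, against 52.7%, 48.8% and 28.7% of all clones on the 9 potato arrays. A clone without a value has no ratio there and is not shown to lack expression.

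In MM the clones leaned to the same side as in potato. Of 73 clones 11 (15.1%) were called lower in SD, against 1.95% of all 4355 clones tested, and 0 were called higher in SD, against 1.33%. At any size 32 (43.8%) passed the test as lower in SD, against 13.5% of all, and 2 passed as higher in SD, against 9.09%. The mean LD/SD ratio was above 0 in 62 of the 73 (84.9%), against 49.4% of all, and its median was 0.38, against 0.004 for all clones. In MM same-numbered arrays of both days deviated together, and with the number as a random block 7 of the 11 were called, with 0 when the days were averaged (n = 3). Over all 4355 clones these fits called 117 and 31 in either direction. Without replicate 1, 6 were called as lower in SD, 5 of them among the 11, and 1 as higher in SD, against 141 of all 4797. From the 1-day arrays alone 0 of 79 were called, against 5 of all 4919 in either direction, so that fit called few clones of any kind. The LD RNA carried the same dye in potato, MM and Hicks. With the dye term of the potato swap pair subtracted, 9 of 72 were called in MM and 7 of 69 in Hicks. Of all clones it was 119 of 4229 and 57 of 3833, in either direction.

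The MM standard errors here and below treat the 6 arrays as separate, although same-numbered arrays of the days deviated together. Clone 161574 had the largest MM mean of the clones called, 2.41 ± 0.39 (SE, n = 6 arrays, limma adjusted p = 0.0065). With the number as a random block this clone had an SE of 0.53 and a limma adjusted p of 0.0403, or 0.103 with the days averaged. Its LD/SD ratios were 2.37, 0.11 and 3.67 after 1 day and 3.01, 2.37 and 2.90 after 15 days, so that replicate 2 of 1 day alone was near 0. In Hicks its ratios were 1.00, 1.49 and 1.77 after 1 day and 1.18, 1.34 and 2.37 after 15 days, all above 1, and its mean was 1.52 ± 0.17 (SE, n = 6; limma adjusted p = 0.00136). The clone closest to it in potato that was tested in MM, 134408, had an MM mean of 0.46 ± 0.17 and was not called (limma adjusted p = 0.112). The values of clones 161574 and 134408, alike in potato, differed by up to 2.86 on the arrays they share. Clone 159148 was closer to 161574 in potato, within 0.18, but lacked values for a test. It had 4 MM values, between 1.16 and 2.05, and 3 Hicks values, between 0.87 and 1.20. It differed from 161574 by up to 1.79 on the arrays they share.

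Clones 143184 and 147370 were also called in MM, with means of 1.69 ± 0.24 and 1.59 ± 0.28 (SE, n = 6). Clone 147370 had MM ratios of 2.32, 2.19 and 0.21 after 1 day and of 0.89, 2.09 and 1.83 after 15 days. The step between the days seen in potato was absent from these values, with means of both days near 1.6. In Hicks clone 147370 had 1.56, 0.13 and 0.34 after 1 day and 2.81, 2.44 and -0.37 after 15 days, a wide spread, with a mean of 1.15 ± 0.38 that was not called (limma adjusted p = 0.114). Clone 143184 was called in Hicks with a mean of 1.38 ± 0.38, and 5 of its 6 values were above 0. The Hicks means after 1 and 15 days were 0.68 and 1.63 for clone 147370, and 0.83 and 1.93 for clone 143184. These were higher at 15 days, as in potato, but replicate 3 of 15 days was below 0 in both clones (-0.37 and -0.08).

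The other clones called in MM with every array above 0 were 156418, 148075 and 142073, with means of 1.5 ± 0.19, 1.49 ± 0.29 and 1.18 ± 0.18 (SE, n = 6). Clone 148075, of LOC102577532, had MM ratios of 2.23, 0.28 and 1.21 after 1 day and of 2.78, 1.05 and 1.40 after 15 days. In Hicks it had 0.59, 1.01 and 1.25 after 1 day and 2.18, 0.71 and 2.77 after 15 days. Both sets were above 0 throughout, and the Hicks mean of 1.42 ± 0.27 was called as well (limma adjusted p = 0.0141). The other clones of this locus, which the rule did not take, differed from each other. Clone 140976 had means of 1.10 in MM and 1.02 in Hicks (6 arrays each), with all values above 0. Clone 140590 had a mean of 0.24 in MM (5 arrays, -0.135 to 0.763). In Hicks its mean was -0.078 (4 arrays, -0.861 to 0.774), and it lacked values for a test in both. Clone 142073 was among the clones whose α-PHYB values disagreed, at -0.33, 0.53 and -1.27. The clones 153419, 142397, 139346, 149189 and 142099 were called in MM with 5 of 6 values above 0 and means of 1.04 to 1.34.

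Of the 2 clones that passed as higher in SD in MM, both had all 6 values below 0, against all 6 above 0 in potato. They were singled out after their values were seen. Clone 144900 had MM ratios of -0.63, -0.92 and -0.95 after 1 day and of -0.88, -0.96 and -0.91 after 15 days, a mean of -0.87 ± 0.11 (SE, n = 6; limma adjusted p = 0.00264). In potato the same clone had 0.70 to 1.40 on the 6 arrays. Clone 137551 had an MM mean of -0.77 ± 0.23 and a Hicks mean of -0.47 ± 0.13, and passed in both (limma adjusted p = 0.0589 and 0.0623). Its potato ratios were between 1.29 and 1.73. Neither clone reached a mean of 1 in size in MM, and the difference between potato and MM was not tested, because the potato values chose the clones.

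In Hicks 5 of 70 clones (7.14%) were called lower in SD, against 0.588% of all 3914 clones tested, and 0 were called higher in SD, against 0.715%. At any size 17 (24.3%) passed as lower in SD, against 4.98% of all, and 1 as higher in SD, against 4.83%. The mean was above 0 in 62 of the 70 clones (88.6%), against 54.4% of all, and the median was 0.31, against 0.03 for all clones. The 5 clones called were 161574, 148075, 143184, 142099 and 153224, of which all but 153224 were called in MM too. Clone 153224 had a Hicks mean of 1.00 ± 0.17 (SE, n = 6; limma adjusted p = 0.00949) and an MM mean of 0.71 ± 0.14, under the size limit. The loci with 2 clones gave smaller means: in Hicks LOC102588954 had 0.84 ± 0.12 and 0.70 ± 0.13, and LOC102577923 had 0.46 ± 0.13 and 0.52 ± 0.11, each past the test at any size, with all 6 values above 0. LOC102577720 had 0.23 and 0.08, with values on both sides of 0. From the 15-day arrays alone 1 of 79 clones was called (1.27%, against 0.27% of all in either direction). That clone was not among the 5. From the 1-day arrays alone 2 of 78 were called (2.56%), against 2.95% of all in either direction, so no excess of calls was seen there. Of these 2 clones, 1 was among the 5. The 1-day means still lay mostly above 0, in 61 of 70 clones, with a median of 0.42. Among all clones on the 9 potato arrays it was 1918 of 3857, with a median of -0.003.

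MM and Hicks could be set against each other for 62 clones. The difference of MM minus Hicks had a median of -0.02 and lay between -0.53 and 0.88, with 30 of the 62 (48.4%) above 0, against 49.9% of all clones. None of the 62 was called by limma, and none of 3466 clones on the whole (0%); at an unadjusted p of 0.05 there were 3 of the 62 and 87 of all. The methods' t-test also called 0, with 3 and 94 at an unadjusted p of 0.05. A missed threshold does not show that the biotypes respond alike.

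**Figure D4:**
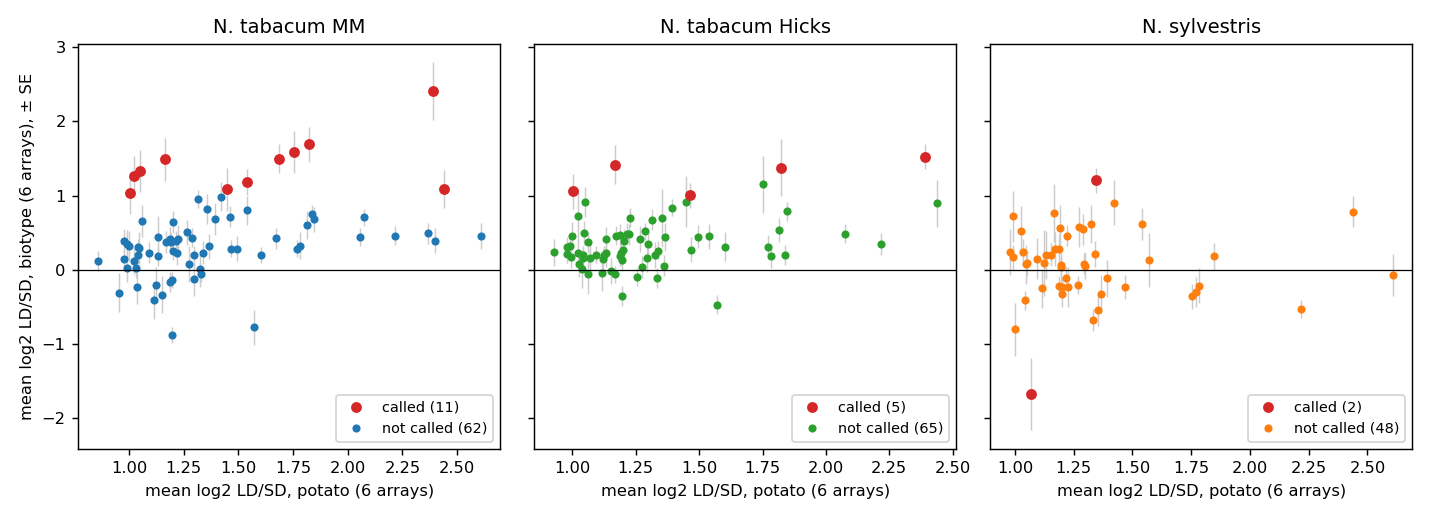
Mean log2 LD/SD ratio over 6 arrays in MM, Hicks and N. sylvestris (vertical; bars, SE of the fit) against the potato mean over 6 arrays (horizontal), for the 73, 70 and 50 clones tested, with called clones in red. In MM and in Hicks 62 clones lie above 0, and the clones called in MM are spread along the whole range of potato means; in N. sylvestris 30 of 50 lie above 0.

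In N. sylvestris the clones were called about as often as all clones. Of 50 clones 1 (2%) was called higher in LD and 1 lower in LD, against 1.12% and 0.691% of all 2314 clones tested. At any size 2 passed as higher in LD and 3 as lower in LD, against 2.64% and 5.83% of all. The mean was above 0 in 30 of the 50 clones (60%), against 50.3% of all, and the median was 0.08, against 0.002 for all clones. The direction of these arrays is not settled: 3 of the 15 pairs of N. sylvestris arrays correlated below -0.3 over all clones, the lowest at -0.42, and the sample titles name the opposite transfer to the channel labels that were followed. Turning the sign of all these arrays makes the called clones change sides, so the counts of 1 higher and 1 lower cannot settle the direction. With the replicate number as a random block, which pairs the days here too, 0 were called higher in LD.

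The clone called higher in LD in N. sylvestris, 156210, had 1.51, 1.33 and 0.79 after 1 day and 1.36, 0.60 and 1.64 after 15 days, all above 0, with a mean of 1.21 ± 0.17 (SE, n = 6; limma adjusted p = 0.0397, and 0.272 with the random block). Its mean was 0.50 (adjusted p = 0.394, limma) with 1-day replicates 2 and 3 turned, and without replicate 3 the adjusted p was 0.377. In MM it had values on 5 arrays, between 1.29 and 4.0, and in Hicks on 5 arrays, between 0.80 and 3.06. It was not tested there because 1 array lacked a value, but every value it had in MM, Hicks, N. sylvestris and the SD comparison of potato was above 0. The clone called lower in LD, 156080, had -3.57, 0.06 and -0.11 after 1 day and -3.19, -1.22 and -2.02 after 15 days, with replicate 1 far below the others on both days (mean -1.68 ± 0.49, SE, n = 6; limma adjusted p = 0.0961). This call was lost under most alternatives, among them median centring, robust eBayes, both replicate blocks and each replicate left out.

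Across the 3 biotypes 46 clones could be compared. Means were above 0 in all 3 for 20 of them, and above 0 in MM and Hicks but below 0 in N. sylvestris for 16. Turning the sign of N. sylvestris exchanges these counts. The limma F-test called 2 of the 46 (4.35%), against 2.84% of 2111 clones, and 15 (32.6%) passed the F-test alone, against 23.1%. Clone 147370 had means of 1.59, 1.15 and -0.36 in MM, Hicks and N. sylvestris (adjusted p = 0.0162, limma), and clone 153419 had 1.34, 0.92 and 0.09 (adjusted p = 0.0363, limma). Neither was called with the replicate number as a random block. With the sign of N. sylvestris turned, 4 clones were called.

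The 138 clones were also set beside the 135 clones with a potato mean of 1 or more and a WT/α-PHYB mean over 0.5. The groups overlap: some of the 138, among them 161755, 142057 and 145970, passed 0.5 once both spots were averaged and count in both. In MM the 138 had 11 of 73 clones called lower in SD and a median LD/SD ratio of 0.38, against 18 of 76 (23.7%) and 0.70 for the 135. In Hicks they had 5 of 70 called and a median of 0.31, against 7 of 77 (9.09%) and 0.59. In N. sylvestris 1 of 50 was called higher and 1 lower in LD, against 1 and 2 of 54. At any size 2 of 50 passed as higher and 3 as lower in LD, against 1 and 16 of 54, and these directions exchange if the sign of the arrays is turned. The difference between the groups was not tested.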

How the data were processed

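Leaf RNA was hybridized in pairs to 28 potato cDNA arrays, and the authors deposited log2 ratios after LOWESS normalization, with limma named in the labels and no version given in the sources used here. No scanner intensities were used, so depth is unknown, and the number of arrays limits the precision. Probe annotation gives gene symbols for 1810 spots. The 2 spots of a clone were found from the array's layout, which contained all 905 pairs of spots that share accessions, and averaged (median r of a pair on 1 array, 0.89). N. sylvestris ratios were turned to LD/SD by the channel labels. Mean ratios were tested by limma (version 3.58.1, lmFit and eBayes, in R 4.3.3) on clones with a value in every replicate, and the fits were checked on simulated data. The thresholds are those of the methods, except that limma replaces the t-test and Benjamini-Hochberg adjustment the q-value.

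The clones, lists and tests were chosen with earlier results of these data known. Named clones are all those with a locus symbol, the 5 with the highest potato mean, in each Nicotiana biotype up to 8 called clones with the same sign in every replicate, and the spots nearest the limits; others were chosen after their values were seen. Same-numbered arrays of the days deviated together in MM (r of 0.541, 0.753 and 0.514) and N. sylvestris (0.856, 0.716 and 0.604), and not throughout in Hicks (0.307, -0.069 and 0.320). Functional gene lists, promoter motifs and tissue markers were not run, because no gene descriptions, promoters or levels were at hand. Alternatives changed the test, centring, scaling, missing values, days, dye term, replicate block, limits and the choice of spots, or left out a replicate.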

Additional observations from a re-analysis of the deposited data

Results flagged for a closer look

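Single arrays stood apart from the others of their biotype in 6 of the named clones, by a rule that chance meets in about 1 in 20 groups. The rule was run on every named clone in potato, MM, Hicks and N. sylvestris where all 6 arrays had a value. Several such arrays can therefore be met by chance. Clone 161574 had 0.11 in MM replicate 2 of 1 day, against 2.37 to 3.67 on the other 5 MM arrays, and clone 149059 had -0.51 in MM replicate 3 of 15 days, against 0.38 to 0.75. In Hicks, clone 137342 had -1.58 in replicate 2 of 15 days, against 0.015 to 0.60, clone 153419 had -0.25 in replicate 2 of 1 day, against 0.90 to 1.35, and clone 155790 had 0.83 in replicate 1 of 15 days, against -0.15 to 0.19. In N. sylvestris, clone 142073 had -0.48 in replicate 2 of 15 days, against 0.53 to 1.11.

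The LD/SD ratio differed among MM, Hicks and N. sylvestris for clone 147370 (limma F-test, adjusted p = 0.01623) and clone 153419 (adjusted p = 0.03627). The cause was not tested.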

How the results depend on the processing

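The count of clones called lower in SD in MM was 11. It became 18 with each spot fitted by itself, 0 from 1 day only, 7 with the replicate number as a random block, 0 with the block by averaging the days and 32 with no limit on size. The calls over all clones, in either direction, went from 143 to 262 (spots), 5, 117, 31 and 984 in the same order. In Hicks the count of 5 became 2 by the methods' t-test with Benjamini-Hochberg adjustment, 3 with a q-value, 9 after centring and scaling, 1 from 15 days, 2 from 1 day, 17 with no limit on size and 3 for clones with both spots in the rule. The count of clones called higher in LD in N. sylvestris was 1. It became 4 from 15 days, 0 from 1 day, 0 with the random block, 0 with the days averaged, 2 with no limit on size, 0 where both spots had a value, 2 with 1-day replicates 2 and 3 turned and 4 without these arrays. Beside the sign turned and the lifted size limit, 14 of 20 alternatives called no clone lower in LD there, against 1 in the reported fit. The 2 clones called among the biotypes became 4 with at least 2 of 3 values a day, 0 from 15 days, 1 from 1 day, 0 with the random block, 0 with the days averaged, 13 with no limit on size, 4 with N. sylvestris turned, 1 with both spots in the rule, 1 where both spots had a value and 4 with the 2 arrays turned. Leaving out each replicate gave 6 to 14 in MM, 5 to 6 in Hicks, 0 to 2 in N. sylvestris, 0 to 3 among the biotypes and 0 to 0 for MM minus Hicks. The Hicks calls changed in part: without replicates 1, 2 and 3 they held 4, 3 and 3 of the 5 reported clones. In Hicks, where the numbers do not pair the arrays, the random block gave 6 calls and the averaged days 5. The mean of clone 139346 in N. sylvestris changed sign, to -0.0359, with 1-day replicates 2 and 3 turned. Over the 24 mean ratios of named clones that passed the test, 361 alternative values kept the direction and the side of the threshold in 272 cases, kept only the direction in 88 and changed sign in that 1. The alternatives with these arrays and with both spots were added after seeing the data. The causes of these changes were not tested.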
